A study of Homo sapiens with 4 samples.

Results

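The NRF2 and glutathione defence genes described here were 10 genes given by name, NFE2L2, KEAP1, NQO1, HMOX1, GCLC, GCLM, TXNRD1, SRXN1, GPX2 and GSTP1, among 18417 genes measured. All 10 were found, each with 1 probe set that the platform annotation maps to that symbol alone. RNA was taken from cells labelled PC3, a line derived from a bone metastasis of prostate cancer. The cells carried the empty pBABE vector (VC-PC3, named PC3-SCR in the sample labels, 2 arrays) or over-expressed PDEF after stable transfection (PDEF-PC3, 2 arrays), and both groups grew in the same serum-containing medium. Whether each line was 1 clone or a pool is not stated in the paper or the labels. The question put to the arrays was how expression of PDEF, an ETS transcription factor of prostate luminal cells, changed these genes.

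NRF2, the product of NFE2L2, is the transcription factor that turns on much of the defence against oxidants and electrophiles. In resting cells KEAP1 binds NRF2 and passes it to a CUL3 ubiquitin ligase for destruction, and reactive molecules that modify KEAP1 cysteines let NRF2 build up in the nucleus. There it pairs with small MAF proteins on antioxidant response elements beside genes for glutathione synthesis, thioredoxin reduction, quinone reduction and heme breakdown. NRF2 activity is set largely through its protein, so the NFE2L2 transcript alone is not a readout of it. In the prostate, loss of GSTP1 through methylation of its promoter is a known early mark of carcinoma.

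Most of the 10 genes were lower in PDEF-PC3 as compared to VC-PC3 arrays. NFE2L2, NQO1, HMOX1, GCLC, GCLM and TXNRD1 fell, SRXN1 and GSTP1 rose, and KEAP1 and GPX2 did not pass the test (limma, Benjamini-Hochberg adjusted p under 0.05 over all genes). Thus 6 of 10 were lower, where 24.0% of all genes were lower, and 2 of 10 were higher, where 26.7% of all genes were higher. With any 1 array left out, fewer members passed in each direction, and fewer of all genes passed too. The shares of all genes given above therefore do not apply to those fits. In either direction 8 of 10 were called, with 50.7% of all genes called. Genes of low signal lower that share. Among the 9208 genes above the median level, tested alone, 3928 were higher and 3009 lower. Of the members, all but GPX2 in that set, 2 were higher and 6 lower. In either direction, most genes at that level were thus called, as most members were. NQO1 was the only member that changed at least 2-fold, where 6.07% of all genes were at least 2-fold lower. The median log2 fold change was -0.52 for the 10 genes and -0.05 for all genes.

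The arrays differed far beyond these genes. SPDEF, which encodes PDEF, rose by 0.77 in log2 units (adjusted p = 0.000563), from VC-PC3 signals only 0.05 above the brightest olfactory receptor gene of each array, so this size is not exact. CTNNA1 and STAT3, known to be homozygously deleted in PC3 cells, had signals of 4.07 to 4.77 in VC-PC3 and of 9.05 to 9.86 in PDEF-PC3, against the labelled cell type. Their summed linear signal was 42.8 and 50.1 in VC-PC3 and 1401 and 1459 in PDEF-PC3. For 9 measured genes of embryonic kidney and neural lines, of 10 listed, the sum was 493 to 524 against 3025 to 3344. Of these 9 genes 6 rose (66.7%) and 1 fell (11.1%), beside 26.7% and 24.0% of all genes. The neurofilament gene NEFM, at 10.69 and 10.89 in PDEF-PC3, made up most of the PDEF-PC3 sum. The kidney genes of the list went both ways. SALL1 and WT1 rose by 1.45 and 0.43, PAX8 fell by 0.83, and PAX2 and LHX1 differed by -0.01 and 0.28 (adjusted p = 0.967 and 0.0554). Sums were lower in PDEF-PC3 for 7 basal and epithelial markers (2606 to 2655 against 609 to 690), 8 fibroblast markers (528 to 606 against 286 to 312), 6 leukocyte markers (803 to 867 against 242 to 255), 5 endothelial markers (203 to 231 against 93.1 to 94.3) and 6 luminal markers (1710 to 1765 against 1283 to 1330). Among the basal and epithelial markers ITGA6 was by far the brightest, at 11.07 and 11.05 in VC-PC3 against 8.40 and 8.57, so their sum is mostly that of ITGA6, while KRT5, KRT14 and CDH1 differed by 0.13, 0.04 and -0.05 in log2 units (adjusted p = 0.411, 0.834 and 0.698). The luminal sum was mostly that of KRT8 and KRT18, at 9.91 and 9.29 in VC-PC3 replicate 1. KRT8 fell by 0.64 (adjusted p = 0.000852) and was the only luminal marker called. KRT18, KLK2, KLK3, KLK4 and HOXB13 differed by -0.25, -0.02, -0.36, 0.11 and 0.12 and did not pass the test. Of the leukocyte, fibroblast and endothelial markers, CD68, COL1A1 and KDR alone exceeded every olfactory receptor gene in both VC-PC3 arrays, and PTPRC, DCN and PECAM1 did so in no array. These lists move with the groups in the same arrays as the 10 genes, so PDEF and a difference in the cells cannot be told apart for any result here. In bulk RNA, fewer cells of a type and less RNA per cell cannot be told apart either.

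Antioxidant response elements have a core of TGACNNNGC, read on either strand (GCNNNGTCA on the gene strand when it lies on the opposite one). The letters were looked for in RefSeq windows of 300 bases (GRCh38.p14), from 250 bases before to 50 bases after each annotated start. Windows were found for 9 of the 10 genes, all but HMOX1, and 5 of these 9 genes held a match, while 16.1% of all genes did. By window, 6 of 12 held a match, while 13.3% of all windows did. The stretches are shown because they hold letters of the element through which NRF2 is known to act, with the matching letters in capitals, 5′ to 3′ on the gene strand.
GCLM (chr1:93909431-93909504, minus strand): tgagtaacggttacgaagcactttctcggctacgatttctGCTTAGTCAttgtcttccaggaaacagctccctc
TXNRD1, first start (chr12:104215640-104215779, plus strand): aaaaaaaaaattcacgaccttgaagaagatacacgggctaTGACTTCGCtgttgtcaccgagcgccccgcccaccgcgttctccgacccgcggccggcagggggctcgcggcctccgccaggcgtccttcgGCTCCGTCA
TXNRD1, second start (chr12:104286890-104286968, plus strand): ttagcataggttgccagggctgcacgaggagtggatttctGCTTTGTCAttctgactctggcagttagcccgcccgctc
GSTP1 (chr11:67583706-67583784, plus strand): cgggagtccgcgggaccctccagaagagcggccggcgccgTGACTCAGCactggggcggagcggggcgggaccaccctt
KEAP1 (chr19:10502772-10502865, minus strand): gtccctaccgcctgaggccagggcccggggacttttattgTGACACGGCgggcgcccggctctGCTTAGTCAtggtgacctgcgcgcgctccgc
GPX2 (chr14:64942829-64942907, minus strand): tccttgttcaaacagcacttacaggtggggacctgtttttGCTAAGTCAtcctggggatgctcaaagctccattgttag
The match began 34 bases before the start in GCLM, 66 bases before it in GSTP1 and 122 bases before it in GPX2. In GSTP1 the match overlaps TGACTCA, the letters of an AP-1 site. Genes with a match included GCLM and TXNRD1, which were lower in PDEF-PC3, GSTP1, which was higher, and KEAP1 and GPX2, which did not pass the test. No match lay in the windows of NFE2L2, NQO1, GCLC and SRXN1, which says only that these letters are not in those windows.

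Of the regulators among the 10 genes, NFE2L2 was lower in PDEF-PC3 and KEAP1 did not pass the test. NFE2L2 gave log2 signals of 9.09 and 9.04 for VC-PC3 and of 8.51 and 8.54 for PDEF-PC3. The groups did not overlap, and NFE2L2 fell by 0.54 in log2 units (standard error, SE, 0.081, adjusted p = 0.00179), to 68.8% of the VC-PC3 level. KEAP1, the substrate adaptor that holds NRF2 down, had VC-PC3 signals of 7.83 and 7.98 and PDEF-PC3 signals of 8.04 and 8.17. Both PDEF-PC3 values lay above both VC-PC3 values, by a gap smaller than the distance between the arrays of either group. The log2 fold change of KEAP1 was 0.20 (adjusted p = 0.135), and its 95% interval ran from -0.04 to 0.44.

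NQO1, a quinone reductase and the classic reporter of NRF2 activity, showed the largest change of the 10 genes. Its signals were 8.90 and 8.86 in VC-PC3 and 5.91 and 6.11 in PDEF-PC3. NQO1 fell by 2.87 in log2 units (SE 0.0981, 95% interval -3.11 to -2.63, adjusted p = 5.54e-06), which left 13.7% of the VC-PC3 signal. Among all genes 146 had a lower log2 fold change, or 0.793% of them. Olfactory receptor genes, taken as mostly but not all silent in these cells, served to judge background on each array. NQO1 in PDEF-PC3 stood only 0.26 and 0.36 above the brightest of them, so the size of its change is not exact. Its interval did not overlap that of any other member.

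**Figure D1:**
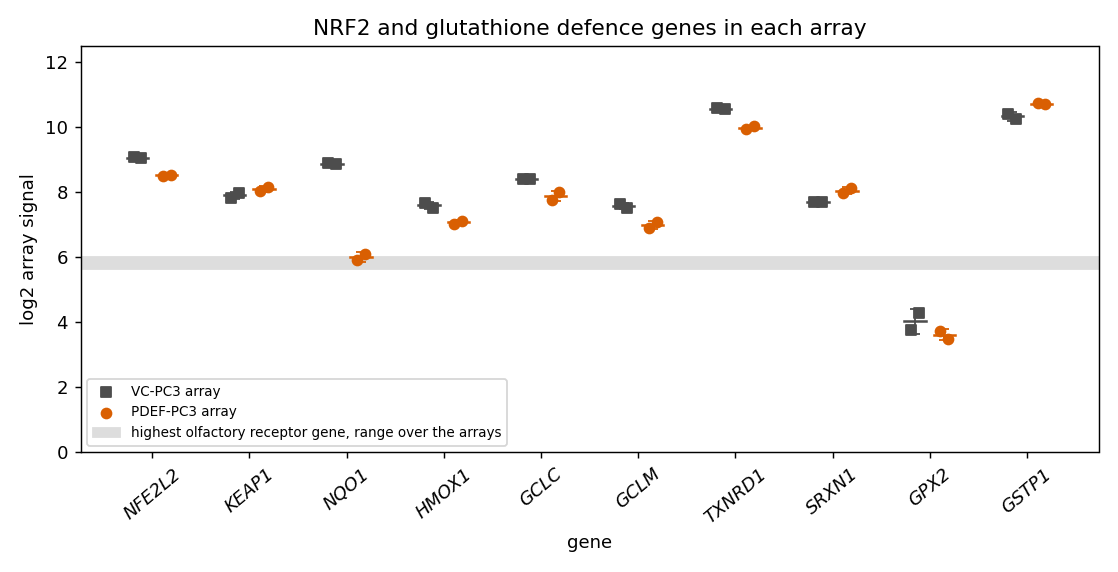
Log2 array signal (vertical axis) of the 10 genes (horizontal axis) in each VC-PC3 array (squares) and PDEF-PC3 array (circles). Lines mark group means and bars the SD (n = 2). The grey band spans the highest olfactory receptor gene of the arrays, 5.65 to 6.01, and NQO1 drops from 8.90 and 8.86 to 5.91 and 6.11, just above it, while GPX2 lies below it in every array.

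HMOX1 encodes heme oxygenase 1, which breaks heme down to biliverdin, iron and carbon monoxide. Its signals were 7.67 and 7.52 in VC-PC3 and 7.02 and 7.12 in PDEF-PC3. Both PDEF-PC3 arrays lay below both VC-PC3 arrays, and HMOX1 fell by 0.52 (SE 0.0943, adjusted p = 0.004), to 69.5% of the VC-PC3 level. With 1 array left out, its adjusted p was 0.0526 without VC-PC3 replicate 1, and 0.076 or 0.0589 without replicate 1 or 2 of PDEF-PC3.

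GCLC and GCLM encode the catalytic and the modifier subunit of glutamate-cysteine ligase, the rate-limiting enzyme of glutathione synthesis. GCLC stood at 8.40 in both VC-PC3 arrays and at 7.77 and 8.00 in the PDEF-PC3 ones, and it fell by 0.52 (SE 0.103, adjusted p = 0.00633). GCLM had signals of 7.63 and 7.51 against 6.90 and 7.08, and it fell by 0.58 (SE 0.1, adjusted p = 0.00337). The subunits thus stood at 70% and 66.9% of their VC-PC3 levels, with 95% intervals of -0.76 to -0.27 for GCLC and -0.82 to -0.34 for GCLM that overlap. In both genes PDEF-PC3 replicate 1 was the lower array. Without that array the adjusted p was 0.052 for GCLC and 0.0608 for GCLM, without VC-PC3 replicate 1 it was 0.093 and 0.0685, and without VC-PC3 replicate 2 it was 0.0926 for GCLC.

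TXNRD1 encodes the cytosolic thioredoxin reductase, a selenoprotein that keeps thioredoxin reduced at the expense of NADPH. Its signals were 10.59 and 10.56 in VC-PC3 and 9.94 and 10.03 in PDEF-PC3. TXNRD1 fell by 0.59 (SE 0.0837, adjusted p = 0.0014), to 66.4% of the VC-PC3 level. NFE2L2, NQO1 and TXNRD1 were the members that passed the threshold in each of the 11 alternative fits. SRXN1, whose product sulfiredoxin repairs over-oxidized peroxiredoxins, moved the other way. Its signals were 7.70 and 7.71 against 7.97 and 8.12, so that it rose by 0.34 (SE 0.09, adjusted p = 0.0201). After quantile normalization its adjusted p was 0.0584, and it was 0.116, 0.11 and 0.101 without VC-PC3 replicate 1, VC-PC3 replicate 2 or PDEF-PC3 replicate 2.

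GSTP1 and GPX2 use glutathione, GSTP1 to conjugate electrophiles and GPX2 to reduce peroxides in epithelia. GSTP1 had VC-PC3 signals of 10.42 and 10.24 and PDEF-PC3 signals of 10.75 and 10.70, at least 4.23 above the olfactory receptor gauge in every array. It rose by 0.39 (SE 0.0953, adjusted p = 0.0139), to 131% of the VC-PC3 level, with an adjusted p of 0.0747 without VC-PC3 replicate 2, and of 0.132 or 0.113 without replicate 1 or 2 of PDEF-PC3. GPX2 had VC-PC3 signals of 3.76 and 4.30 and PDEF-PC3 signals of 3.74 and 3.50, below the highest olfactory receptor gene in all 4 arrays. Its log2 fold change of -0.41 (95% interval -0.86 to 0.04, adjusted p = 0.113) is therefore a difference between background-level signals.

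**Figure D2:**
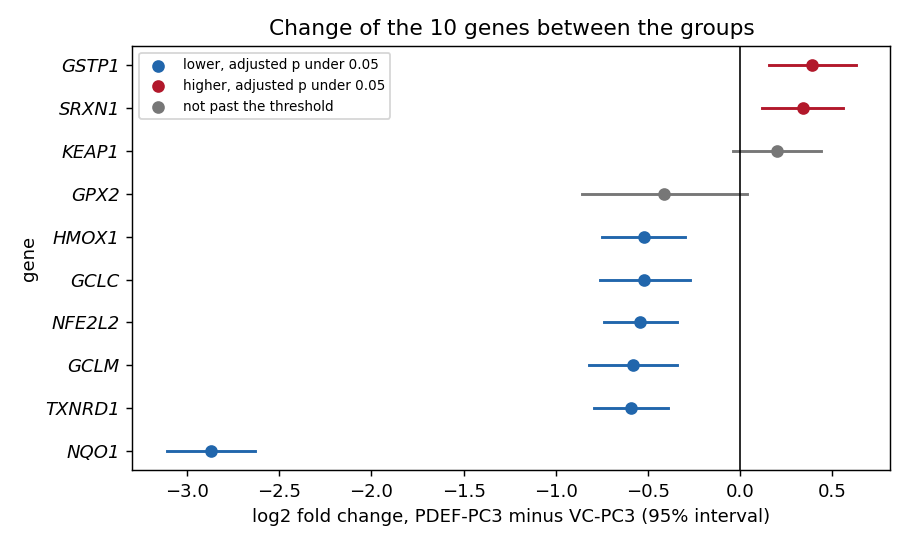
Change from VC-PC3 to PDEF-PC3 in log2 units (horizontal axis) for each of the 10 genes (vertical axis), with its 95% interval as a bar and 2 arrays per group. NQO1 stands alone at -2.87, 5 genes lie between -0.59 and -0.52 in blue, SRXN1 and GSTP1 lie at 0.34 and 0.39 in red, and the intervals of KEAP1 and GPX2 in grey reach across 0.

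In every one of the 10 genes the signals of VC-PC3 and PDEF-PC3 were fully separated, 7 with PDEF-PC3 lower and 3 with PDEF-PC3 higher. Such separation held for 74.7% of all genes, 39.7% lower and 35.0% higher in PDEF-PC3. The sign of the log2 fold change was the same in all fits tried for each of the 10 genes. The changes of HMOX1, GCLC, GCLM, TXNRD1 and NFE2L2 spanned a narrow range, from -0.59 to -0.52.

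**Figure D3:**
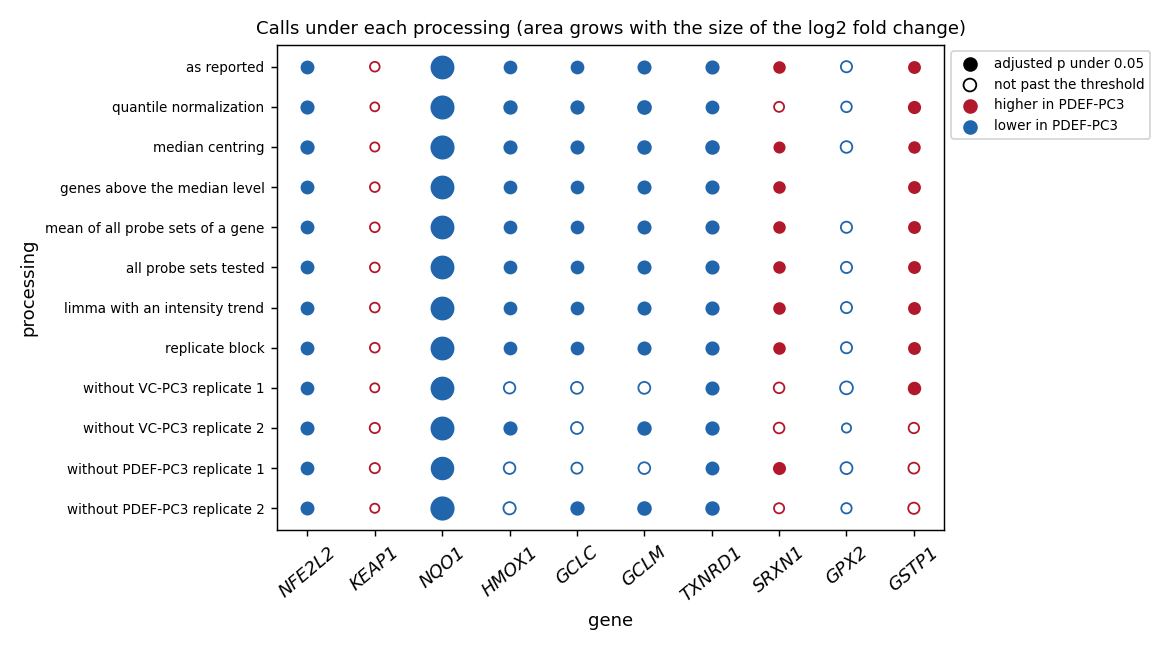
Direction and call of each of the 10 genes (horizontal axis) under the reported processing and 11 alternatives (vertical axis), with filled circles at an adjusted p under 0.05, open circles otherwise, and an area that grows with the size of the log2 fold change. NFE2L2, NQO1 and TXNRD1 are filled throughout, while HMOX1, GCLC, GCLM, SRXN1 and GSTP1 turn open in 2 to 4 alternatives each, and no circle changes colour within a gene.

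Around these genes, 137 further genes of the pathway were listed in 4 groups and 124 of them were measured. Of these 52 fell, or 41.9%, and 33 rose, or 26.6%, beside 24.0% and 26.7% of all genes, while 39 did not pass the test. Their median log2 fold change was -0.10. A change of at least 2-fold was seen downward in 19 and upward in 11 of them, beside 6.07% and 8.67% of all genes. In no array did 22 of the 124 genes exceed the highest olfactory receptor gene, beside 7179 of all 18417 genes.

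Of the regulators and partners of NRF2, 10 of 21 measured genes fell (47.6%) and 7 rose (33.3%), beside 24.0% and 26.7% of all genes. NFE2L3, a CNC transcription factor related to NRF2, fell by 1.30 (adjusted p = 0.000101), from signals of 8.06 and 8.00 to 6.62 and 6.83. The kinase gene GSK3B, whose product marks NRF2 for a second route of degradation, fell by 1.27 (adjusted p = 4.6e-05). SYVN1, which encodes a ubiquitin ligase of the endoplasmic reticulum that also targets NRF2, fell by 1.22 (adjusted p = 5.7e-05). BTRC, the substrate receptor that recognizes NRF2 after GSK3 has phosphorylated it, rose by 1.18 (adjusted p = 0.000144), and PALB2, a partner of BRCA proteins that can bind KEAP1, rose by 1.01 (adjusted p = 0.000396). RBX1, the RING subunit of the CUL3 ligase, rose by 0.95 (adjusted p = 0.001), a call that was lost without VC-PC3 replicate 1 or 2 (adjusted p = 0.0601 and 0.0515). For other parts of the same ligase and of NRF2's partners, named after their values were seen, CUL3 differed by -0.02 in log2 units (adjusted p = 0.857) and the NRF2 competitor BACH1 by -0.12 (adjusted p = 0.305). The small MAF genes MAFF and MAFG fell by 1.16 and 0.51, MAFG with an adjusted p of 0.0511 to 0.0828 without PDEF-PC3 replicate 1 or either VC-PC3 array. The PDEF-PC3 signals of MAFF, 5.64 and 5.51, were not above the gauge, and the size of its fall is not exact. The autophagy receptor gene SQSTM1, whose product sequesters KEAP1, fell by 0.81 (adjusted p = 0.000391).

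Genes of glutathione synthesis and use went both ways, with 18 of 45 measured genes lower (40%) and 9 higher (20%), beside 24.0% and 26.7% of all genes. ANPEP, a surface aminopeptidase that can cleave the dipeptide from glutathione breakdown, fell by 4.07 (adjusted p = 2.5e-06), from signals of 9.65 and 9.59 to 5.53 and 5.57, not above the olfactory receptor gauge. The glutathione transferase genes GSTT1 and GSTM4 fell by 1.95 (adjusted p = 0.000257) and 1.83 (adjusted p = 6.63e-05). GGT7, of the gamma-glutamyltransferase family, rose by 1.62 (adjusted p = 2.05e-05), and the transferase genes GSTA4 and GSTZ1 rose by 1.17 (adjusted p = 0.000119) and 1.10 (adjusted p = 0.000711). The VC-PC3 signals of GGT7 and GSTA4 and 1 PDEF-PC3 signal of GSTT1 were not above the gauge, so these sizes are not exact, and the GSTM genes are close copies whose probe sets may share signal.
Further genes of the glutathione cycle were named after their values were seen. SLC7A11, which encodes the cystine transporter that feeds glutathione synthesis, had VC-PC3 signals of 8.09 and 8.04 and PDEF-PC3 signals of 6.56 and 6.76, and it fell by 1.41 (SE 0.0985, adjusted p = 6.87e-05). SLC3A2, its partner chain, fell by 0.43 (adjusted p = 0.00507, and 0.0526 or 0.0544 without replicate 1 or 2 of PDEF-PC3). GSS, the synthetase that completes glutathione, rose by 0.50 (adjusted p = 0.00381). GSR, the reductase that recycles it, rose by 0.93 (adjusted p = 0.000211), from signals of 9.01 and 9.10 to 9.95 and 10.02. GPX4, the peroxidase of membrane lipids, rose by 0.53 (adjusted p = 0.00385), and the cytosolic peroxidase gene GPX1 differed by -0.10 (adjusted p = 0.605). CHAC1, which cleaves glutathione, fell by 1.56 (adjusted p = 5.32e-05) to signals not above the gauge, and GGCT, which acts on the gamma-glutamyl fragment, differed by 0.32 (adjusted p = 0.0738). Without PDEF-PC3 replicate 1 the adjusted p was 0.0618 for GSS and 0.0626 for GPX4, without PDEF-PC3 replicate 2 it was 0.0795 for GPX4, and without VC-PC3 replicate 2 it was 0.052 for GSS.

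**Figure D4:**
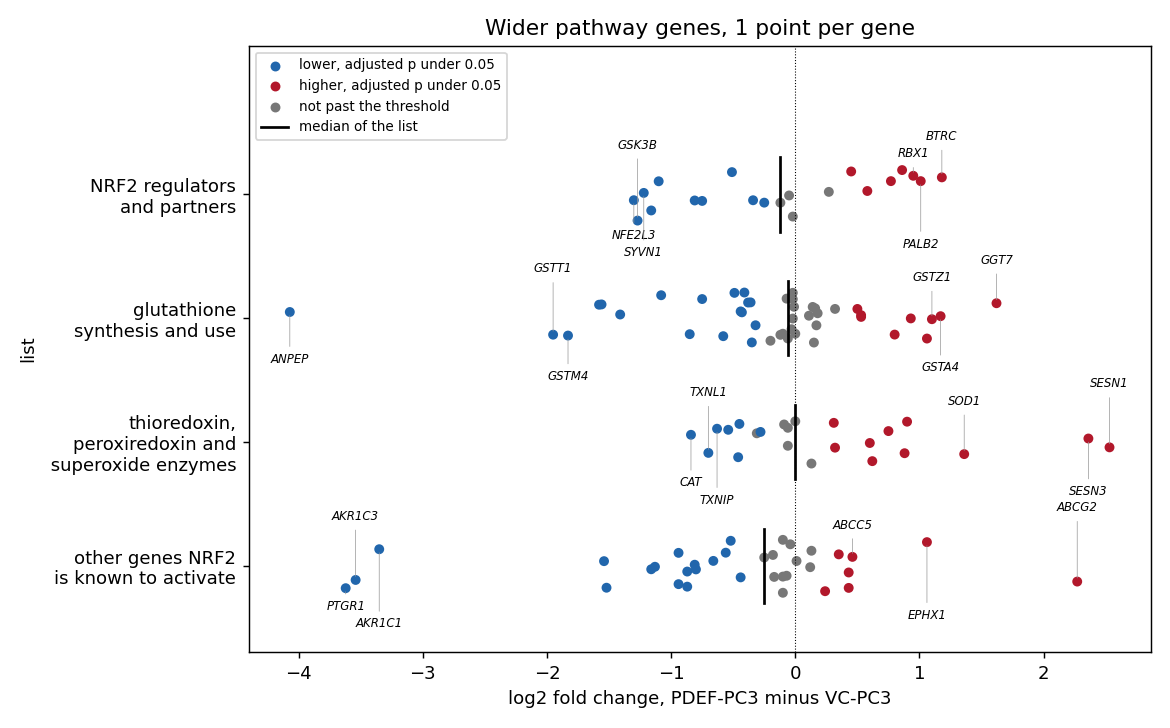
Change from VC-PC3 to PDEF-PC3 in log2 units (horizontal axis) for 124 wider pathway genes in 4 lists (vertical axis, with points spread within a list for visibility), 1 point per gene, and the median of each list as a black line. The lists of other NRF2-activated genes and of glutathione genes reach down to PTGR1 at -3.62 and ANPEP at -4.07, while the list of thioredoxin, peroxiredoxin and superoxide enzymes reaches up to SESN1 at 2.53.

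In the list of thioredoxin, peroxiredoxin and superoxide enzymes, 10 of 23 measured genes rose (43.5%) and 7 fell (30.4%), beside 26.7% and 24.0% of all genes. The sestrin genes SESN1 and SESN3, whose products restrain growth signalling under stress, rose by 2.53 (adjusted p = 1.07e-05) and 2.36 (adjusted p = 3.4e-05), with VC-PC3 signals of SESN1 not above the gauge. SOD1, the copper-zinc superoxide dismutase, rose by 1.36 (adjusted p = 4.27e-05), from signals of 10.40 and 10.32 to 11.69 and 11.75. CAT, which encodes catalase, fell by 0.84 (adjusted p = 0.000564), TXNL1, a thioredoxin-like proteasome partner, fell by 0.70 (adjusted p = 0.000651), and TXNIP, the inhibitor of thioredoxin, fell by 0.63 (adjusted p = 0.00109). TXN, the substrate of TXNRD1 and named after its values were seen, rose by 0.75 (adjusted p = 0.00048).

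Of 35 measured genes that NRF2 is otherwise known to activate, 17 fell (48.6%) and 7 rose (20%), beside 24.0% and 26.7% of all genes. The median log2 fold change of this list was -0.25. PTGR1, a reductase of leukotrienes and reactive alkenals, fell by 3.62 (adjusted p = 2.66e-06), from signals of 9.87 and 9.95 to 6.28 and 6.30. The aldo-keto reductase genes AKR1C3 and AKR1C1 fell by 3.54 (adjusted p = 6.75e-06) and 3.35 (adjusted p = 2.85e-06), to signals of 4.22 to 4.53 that were not above the gauge. The AKR1C genes are near-identical copies, so their probe sets cannot be taken as separate measurements. ABCG2, a drug efflux pump, rose by 2.27 (adjusted p = 2.18e-05) from VC-PC3 signals not above the gauge, and EPHX1, the microsomal epoxide hydrolase, rose by 1.06 (adjusted p = 0.000106). ABCC5, a nucleotide exporter, rose by 0.46 (adjusted p = 0.0117), a call that was lost without replicate 1 or 2 of PDEF-PC3 (adjusted p = 0.111 and 0.149) or replicate 2 of VC-PC3 (adjusted p = 0.0732).
Genes of heme and iron handling on this list were also named after their values were seen. The ferritin light chain gene FTL fell by 1.52 (adjusted p = 2.86e-05) and the heme transporter gene SLC48A1 by 1.54 (adjusted p = 3.59e-05). The biliverdin reductase genes BLVRA and BLVRB, which act on the product of HMOX1, fell by 0.87 and 1.13. FECH, which completes heme synthesis, rose by 0.43 (adjusted p = 0.00832), and its adjusted p was 0.054 to 0.101 without either PDEF-PC3 array or replicate 2 of VC-PC3. The iron exporter gene SLC40A1 rose by 0.24 (adjusted p = 0.0457) between signals that were not above the gauge in any array, with an adjusted p of 0.0649 to 0.144 in the 9 alternatives in which that call was lost.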

How the data were processed

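RNA of VC-PC3 and PDEF-PC3 cells was hybridized to Affymetrix human gene arrays (HuGene 1.0 ST), 2 arrays per group. Per the labels, the authors used Transcriptome Analysis Console, and the deposited table holds log2 signals for 33297 probe sets. For the software version, the background correction and the normalization, nothing was given in the sources used. The values, with array medians of 5.41 to 5.46, fit a log2 scale and were not rescaled, and scaling between arrays by the authors would hide any change common to all genes.

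The 19460 probe sets with 1 symbol gave 18417 genes, with the probe set of highest mean chosen where a gene had several, without a filter on low signals. Symbols were updated from RefSeq (GRCh38.p14), where 99.8% of the single-gene entries matched. Listed genes without such a probe set were not analysed here. Groups were compared with limma 3.58.1 in R 4.3.3 (lmFit and eBayes, two-sided, 2 residual and 4.23 prior degrees of freedom), adjusted over all genes by Benjamini-Hochberg. The script was tested on simulated data. With 2 arrays a group, the smallest two-sided p of an exact permutation test is 0.333, and the number of arrays limits the precision. Separate cultures are not stated, so the spread behind the p-values is that between these arrays and may be technical. The background gauge is the highest of 361 olfactory receptor genes per array (5.65 to 6.01). Their 95th percentile was 4.44 to 4.64. Some of these genes may be transcribed, so the gauge is a strict bar and a signal not above it may still be real.

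Named were the 10 members and, per list, the 3 called genes with the largest rise and the 3 with the largest fall; others are marked as named after their values were seen. The members and lists were chosen with earlier results of these data known. Alternatives were quantile normalization, median centring, genes above the median level, the mean of a gene's probe sets, all probe sets, an intensity trend, a replicate block and leaving out each array.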

Additional observations from a re-analysis of the deposited data

How the results depend on the processing

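All 10 genes kept their direction in each alternative that measured them, and 94 of 109 values stayed on the same side of the threshold, while 15 no longer passed it. GPX2 was not among the genes above the median level. After quantile normalization 1 member was higher, as SRXN1 no longer passed. With each array left out in turn, 0 to 1 members were higher and 3 to 5 lower, with 3 lower without VC-PC3 replicate 1 or PDEF-PC3 replicate 1, 0 higher without VC-PC3 replicate 2 or PDEF-PC3 replicate 2, 20 to 26 wider pathway genes higher and 35 to 44 lower, and 3010 to 3635 of all genes higher and 2326 to 2856 lower. At least a 2-fold change was met by 1 of the 8 called members. Scaling moved the median of all genes by at most 0.070 (median centring), where 44.5% of calls were higher in place of 52.7%. The replicate numbers of the labels did not pair the arrays (Pearson's r over genes of same-numbered deviations 0.022), and with the replicate block 2 members were higher and 6 lower, 4355 of all genes higher and 3619 lower, while ABCC5 had an adjusted p of 0.0564. The fits without 1 array assume that the lone array varies like those of the other group. Signals near the olfactory receptor gauge, as for GPX2, limit what size of change can be read.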

Other observations

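TXNRD1 and the glutathione peroxidases GPX2 and GPX4 are selenoproteins, which need a dedicated machinery to place selenocysteine at a recoded stop codon. Lists for this machinery and for NADPH supply were added after the values of the 10 genes were seen, so they carry no test as lists. Of 8 measured genes of selenocysteine synthesis and insertion, 5 were higher in PDEF-PC3, 1 was lower and the other 2 did not pass, beside 26.7% of all genes higher and 24.0% lower. The calls of PSTK, SEPHS2 and TRNAU1AP (higher) and of SEPSECS (lower) were each lost in 2 to 6 alternatives, with adjusted p-values of 0.0516 to 0.252, and those of SEPHS1 and SECISBP2 in none. SEPHS1, a selenophosphate synthetase homologue, rose by 1.68 in log2 units (SE 0.103, adjusted p = 4.23e-05), from signals of 7.59 and 7.55 to 9.36 and 9.13. SECISBP2, which encodes the protein that reads the selenocysteine insertion element, rose by 1.51 (SE 0.0898, adjusted p = 3.6e-05). Among selenoprotein genes on the lists above, GPX4, MSRB1, TXNRD2 and SEPHS2 rose by 0.53, 0.62, 0.31 and 0.56, and GPX1, GPX3 and GPX6 did not pass. The calls of MSRB1 and TXNRD2 were lost when all probe sets were tested (adjusted p = 0.0535 and 0.0794). TXNRD2 also lost its call after quantile normalization, median centring and with the replicate block (adjusted p = 0.128, 0.076 and 0.095). Dropping any single array had the same effect on TXNRD2, with rises of 0.22 to 0.39. For MSRB1, dropping PDEF-PC3 replicate 1, PDEF-PC3 replicate 2 or VC-PC3 replicate 2 did so, with rises of 0.54, 0.69 and 0.40. Of 15 selenoprotein genes outside those lists, 5 fell (33.3%) and 1 rose (6.67%), by 0.69 or less, beside the same shares of all genes. DIO2 and DIO3, among those that fell, were below the gauge in all 4 arrays. The calls of DIO2, DIO3 and SELENOH were lost in 6, 3 and 7 of the alternatives that measured them (for DIO2 and SELENOH, adjusted p = 0.0521 to 0.086 in those with all 4 arrays). The others were SELENOT and SELENON, which fell by 0.44 and 0.48 (the latter with an adjusted p of 0.0988 and 0.103 without either PDEF-PC3 array), and SELENOI, which rose by 0.69.

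NADPH is what TXNRD1, NQO1 and GSR draw on. Of 14 measured genes of its supply outside the lists above, 7 were higher, 3 were lower and 4 did not pass, beside the same shares of all genes. Of these RPIA, RPE, ME2 and NADK2 among the higher and PGLS and ME3 among the lower lost their calls in 1 to 8 alternatives. The mitochondrial folate enzyme gene ALDH1L2 had signals of 4.24 and 4.33 in VC-PC3, not above the olfactory receptor gauge, and of 6.61 and 6.84 in PDEF-PC3 (log2 fold change 2.44, adjusted p = 1.19e-05). NNT, the transhydrogenase of the inner mitochondrial membrane, rose by 1.14 (adjusted p = 7.88e-05) and MTHFD1L by 0.82 (adjusted p = 0.000422). The NAD kinase gene NADK fell by 0.60 (adjusted p = 0.00116), the only lower gene of this list that kept its call in each alternative. In the pentose phosphate pathway, PGD, PGLS and TALDO1 fell by 0.87, 0.54 and 0.66 (adjusted p = 0.000224, 0.00327 and 0.00108, and for PGLS 0.0514 and 0.0627 without VC-PC3 or PDEF-PC3 replicate 1), while RPIA and RPE rose by 0.28 and 0.31 (adjusted p = 0.0374 and 0.0271, and 0.0603 to 0.16 in the alternatives in which these calls were lost) and TKT differed by -0.04 (adjusted p = 0.744).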
